A study of Caenorhabditis elegans with 2 samples.

Results

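Long intergenic noncoding RNA (lincRNA) genes of Caenorhabditis elegans were examined for peaks of the nuclear receptor NHR-6. A gene counted as a lincRNA gene when the Ensembl annotation of the worm genome, WBcel235, gives it that biotype and places it on a nuclear chromosome. The rule gave 194 lincRNA genes among 46890 nuclear genes, of which 169 carry a linc- name. Peaks came from ChIP-seq of eGFP-tagged NHR-6 in 1 group with 2 biological replicates. Both were whole L4 larvae of mixed sex from strain OP90, whose genotype the labels give as unc-119(ed3) III and wgIs90, the transgene that carries the tagged nhr-6. Every worm measured carried that mutation and that transgene. No untagged or input library was analysed here, so peaks that do not depend on NHR-6 cannot be told apart from peaks that do, and the design holds no comparison of conditions.

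LincRNAs are transcripts with little coding potential that are made, capped and often spliced like messenger RNAs, from sequence that is mostly between protein-coding genes. In the worm most were catalogued from RNA sequencing and few have a described role. In the worm, NHR-6 represents the NR4A orphan nuclear receptors, which bind DNA without a known ligand, and it is known for its part in forming the spermatheca, the organ in which oocytes are fertilised. ChIP-seq gives the place of a bound protein as a peak with a summit, the position of its maximum. It does not show which of the neighbouring genes, if any, is regulated from there.

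A lincRNA gene was counted as marked when a summit fell in the gene or within 200 bp of it, or within 1000 bp upstream of its 5′ end. A summit was further noted as lying in a protein-coding window when a protein-coding gene had its annotated 5′ end at most 1000 bp downstream or 200 bp upstream of it, in the direction of that gene. The sequences under some of these summits are printed first, because they include summits in such shared windows and summits outside them. Each is the 101 bases centred on the summit in RefSeq's WBcel235 genome, 5′ to 3′ on the strand of the lincRNA, with capitals for matches to 10 short motifs searched on both strands. Nuclear receptors recognise AGGTCA, and receptors of the NR4A family prefer its extended form, written AAAGGTCA, which contains the shorter motif. The others were the repeat GAGAGA, the AP-1 site TGANTCA, the GC box GGGCGG, the E-box CACGTG, the CCAAT box, the TATAAA box, the CREB-type core TGACG and the sequence GACGCA. The last pair overlaps in TGACGCA. The first 5 lie in the window of a protein-coding gene as well as upstream of a lincRNA. They are linc-78 at chrX:2242920-2243020 on the plus strand, and on the minus strand linc-92 at chrV:5791030-5791130, linc-60 at chrIV:14959626-14959726, linc-153 at chrV:11644299-11644399 and linc-8 at chrII:2504562-2504662.
linc-78: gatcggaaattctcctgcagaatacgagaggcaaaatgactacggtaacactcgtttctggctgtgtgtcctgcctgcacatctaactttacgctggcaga
linc-92: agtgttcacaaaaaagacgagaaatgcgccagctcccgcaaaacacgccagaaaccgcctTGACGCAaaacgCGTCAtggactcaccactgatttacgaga
linc-60: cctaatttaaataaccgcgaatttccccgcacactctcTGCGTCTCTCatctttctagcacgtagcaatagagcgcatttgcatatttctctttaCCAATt
linc-153: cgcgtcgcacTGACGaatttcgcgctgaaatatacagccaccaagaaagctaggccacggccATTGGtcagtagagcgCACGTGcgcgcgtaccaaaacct
linc-8: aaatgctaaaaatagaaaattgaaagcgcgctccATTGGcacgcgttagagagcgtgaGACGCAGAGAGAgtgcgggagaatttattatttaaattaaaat
The next 4 lie outside every protein-coding window and are all on the plus strand. They are linc-128 at chrV:1151407-1151507, linc-22 at chrX:9068237-9068337, K07C10.8 at chrII:11167248-11167348 and linc-152 at chrII:15258856-15258956.
linc-128: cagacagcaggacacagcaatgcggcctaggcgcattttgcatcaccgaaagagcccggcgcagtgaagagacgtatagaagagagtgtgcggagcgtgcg
linc-22: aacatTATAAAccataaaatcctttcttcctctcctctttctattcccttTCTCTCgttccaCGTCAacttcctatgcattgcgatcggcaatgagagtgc
K07C10.8: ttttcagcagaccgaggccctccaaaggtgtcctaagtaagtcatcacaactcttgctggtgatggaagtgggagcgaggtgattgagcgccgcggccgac
linc-152: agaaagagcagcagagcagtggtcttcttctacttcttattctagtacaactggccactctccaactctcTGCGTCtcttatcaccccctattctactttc
The windows of linc-78, linc-128 and K07C10.8 hold none of the 10 motifs. In linc-60 the capitals TGCGTCTCTC join a GACGCA match to a GAGAGA match read on the other strand, and in linc-8 the same pair is joined in the order GACGCAGAGAGA.

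Few lincRNA genes had a peak in the list that the authors thresholded for reproducibility, and their share was near that of protein-coding genes. In the thresholded list, 15 of 194 lincRNA genes had a summit in the gene or within 200 bp, a share of 7.73% (exact Clopper-Pearson 95% interval 4.39 to 12.4%), where 5.14% of all nuclear genes did. Upstream, 16 lincRNA genes had a summit within 1000 bp, or 8.25% (4.79 to 13.0%), against 5.83% of all nuclear genes. By either rule the count was 27, or 13.9% (9.38 to 19.6%), against 8.35%. The nuclear genes include 15363 piRNA genes, with a median length of 21 bp, of which 1.35% were marked by either rule. Without them the shares over nuclear genes were 7.52%, 8.09% and 11.8%, each inside the lincRNA interval. Of the 27, 11 genes were marked by the first rule alone, 12 by the upstream rule alone and 4 by both. Protein-coding genes gave 8.10%, 9.99% and 13.5% by the same 3 rules, each inside the lincRNA interval. Genes of the class annotated ncRNA gave 6.45%, 4.01% and 8.38%, and the last 2 of these lie below the lincRNA intervals. Genes are not replicates, neighbours can share a summit, and the intervals cover counting only.

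The classes differ in length, and a longer gene offers more sequence for a summit to fall in. The median length was 761 bp for lincRNA genes, 2027 bp for protein-coding genes and 140 bp for the ncRNA class. The upstream rule gives every gene the same length of sequence. Among the short noncoding classes, snoRNA genes had the highest shares, 21.4% near the gene and 25.4% upstream, and tRNA genes had 20.1% and 12.6%. These are the RNAs that guide modification of ribosomal RNA and that carry amino acids to the ribosome. The median distance from a lincRNA gene to the nearest thresholded summit was 15318 bp, with 12532 bp for protein-coding genes and 13783 bp for the ncRNA class.

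**Figure D1:**
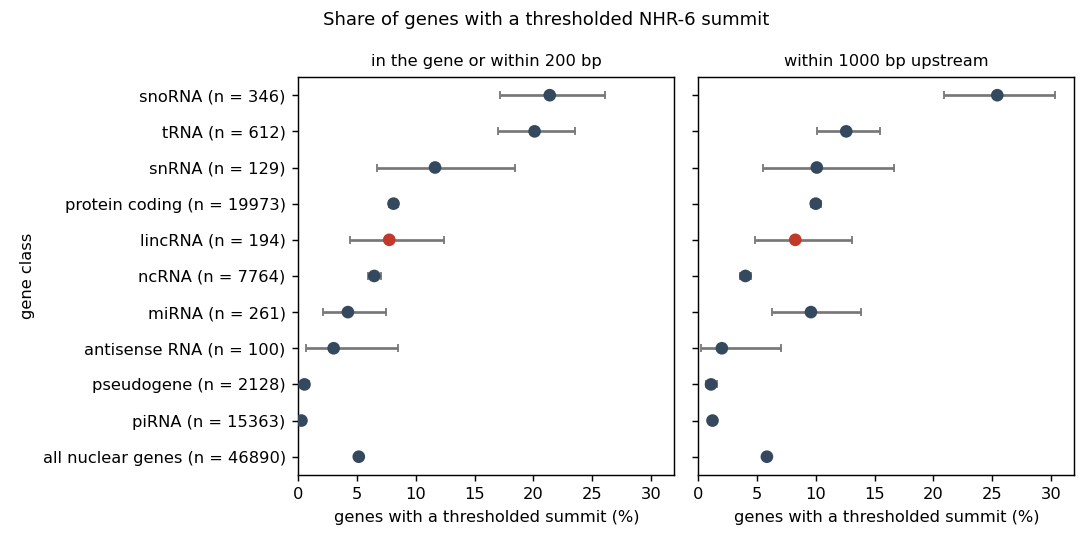
Share of genes in each annotated class that have a thresholded NHR-6 summit in the gene or within 200 bp (left) or within 1000 bp upstream (right). Points are percentages of genes, bars are exact 95% binomial intervals that cover counting only, and n is the number of genes; the 20 rRNA genes are not drawn. The lincRNA point (red) sits at 7.73% and 8.25%, beside protein-coding genes at 8.10% and 9.99% and below snoRNA genes at 21.4% and 25.4%.

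The 27 marked lincRNA genes held 29 summits, because linc-91 and linc-44 had a pair each, and no summit was assigned to more than 1 lincRNA gene. Of the 29 summits, 16 were upstream of the lincRNA, 6 in an exon, 5 in an intron and 2 downstream of its 3′ end. The signal value, which is the authors' own value per peak and is compared here only inside 1 list, ran from 28.1 to 112.2 with a median of 39.0. The whole thresholded list had a median of 39.1 and a highest value of 1433. In that list, 8 of the 29 lincRNA summits (27.6%) were in the strongest 25%, and the best of them ranked 40. Peaks at lincRNA genes thus spanned the range of the list apart from its top.

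**Figure D2:**
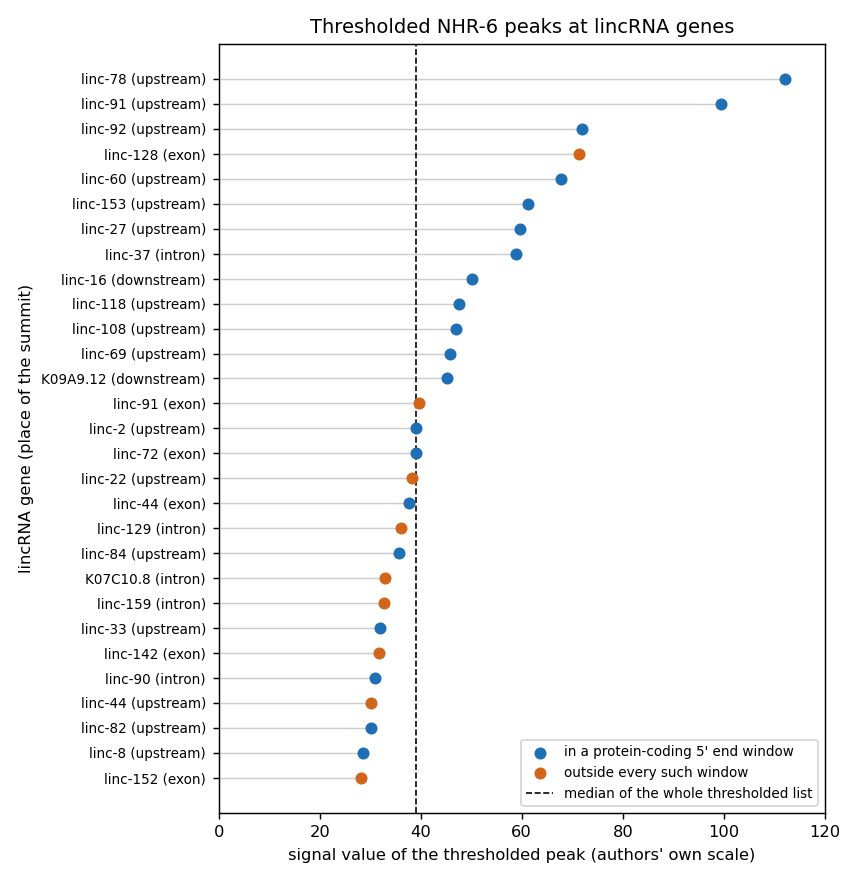
Signal value of each of the 29 thresholded peaks at lincRNA genes, on the authors' own scale from 0, ordered by signal, with the place of the summit in brackets. Blue points lie in a protein-coding 5′ end window and orange points outside all of them, and the dashed line is the median of the whole list, 39.1. Values run from 28.1 at linc-152 to 112.2 at linc-78, and linc-128 is the highest orange point at 71.3.

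The strongest lincRNA peak was at linc-78 (WBGene00219643, chromosome X, 2243115 to 2243239, plus strand), an exon of 125 bp. Its summit at 2242970 was 145 bp upstream of the lincRNA and had a signal of 112.2. In replicate 1 the matching peak had a signal of 63.2 and ranked 38, and in replicate 2 it had 50.3 and ranked 89. Both replicates therefore placed it among their first 100 peaks. The same summit is 352 bp upstream of rpl-11.2 on the opposite strand, which encodes a protein of the large ribosomal subunit, and within 200 bp of AH9.7, a gene annotated ncRNA. linc-78 itself overlaps the protein-coding gene AH9.1.

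The next was linc-91 (WBGene00219746, chromosome I, 4699610 to 4702866, plus strand), which like linc-44 had an upstream and an internal thresholded summit. The upstream summit at 4699532 was 78 bp before the lincRNA, with a signal of 99.5 at rank 74. It ranked 36 in replicate 1 with a signal of 64.1 and 302 in replicate 2 with 36.4. It is also 957 bp upstream of chd-7, a chromodomain helicase gene that runs the other way. The internal summit at 4701392 lay in the single exon, 1782 bp from the 5′ end and 2817 bp from that of chd-7, outside its window. Its signal was 39.6 at rank 1320, with rank 3238 in replicate 1 and 419 in replicate 2, so the replicates placed the internal peak far apart.

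Other strong peaks, at linc-92, linc-153, linc-60 and linc-27, lay upstream of a lincRNA and of a protein-coding gene at once. At linc-92 (WBGene00219698, chromosome V, 5789946 to 5790325, minus strand) the summit was 755 bp upstream of the lincRNA but 150 bp upstream of F44E7.9 and 527 bp upstream of the nuclear receptor gene nhr-142, which linc-92 overlaps. Its signal was 71.8, with rank 244 in replicate 1 and 370 in replicate 2. At linc-153 (WBGene00219612, chromosome V, 11641024 to 11643916, minus strand) the summit was 433 bp upstream of the lincRNA and 128 bp upstream of bir-1, which encodes the worm survivin that acts in chromosome segregation. That peak had a signal of 61.2 and ranked 339 and 666 in the replicates. In both cases the protein-coding 5′ end was the nearer one.

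At linc-60 (WBGene00219618, chromosome IV, 14958931 to 14959349, minus strand) the order was the other way round. The summit was 327 bp upstream of the lincRNA and 802 bp upstream of Y41E3.1 on the same strand, with a signal of 67.8 and ranks of 456 and 351. At linc-27 (WBGene00219713, chromosome II, 6369727 to 6369877, minus strand) it was 447 bp upstream of the lincRNA and 979 bp from lin-23, an F-box protein gene that restrains cell division. Its signal was 59.6, with ranks of 812 and 421. At these genes the lincRNA 5′ end was the nearer one, although the summit stayed within 1000 bp of a protein-coding gene.

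The summits of linc-37, linc-16 and linc-118 lay inside protein-coding genes, while that of linc-128, described below, did not. The summit of linc-37 (WBGene00219709, chromosome III, 832984 to 833347, plus strand) fell in the lincRNA's intron, 92 bp from its 5′ end, and at the same time 94 bp inside zip-2, a bZIP transcription factor gene of the response to pathogens. The 5′ ends of linc-37 and zip-2 nearly coincide on the same strand. This peak had a signal of 58.8 with ranks of 408 and 667. At linc-16 (WBGene00219728, chromosome II, 1820242 to 1820946, minus strand) the summit was 110 bp beyond the 3′ end, inside the F-box gene fbxa-3 and 347 bp upstream of another F-box gene, fbxc-19. Its signal was 50.1, with ranks of 1065 and 671. The summit of linc-118 (WBGene00219600, chromosome X, 15617415 to 15617830, plus strand) was 787 bp upstream of the lincRNA and 125 bp inside ergi-3, with a signal of 47.6 and ranks of 896 and 1472. Of the 29 summits, 5 (17.2%) lay inside a protein-coding gene, where 27.4% of all thresholded summits did. The name intergenic holds only in part for the class, since 42 of the 194 lincRNA genes overlap a protein-coding gene in this annotation.

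A window of a protein-coding 5′ end held 20 of the 29 lincRNA summits (69.0%, exact 95% interval 49.2 to 84.7%), against 57.6% of all thresholded summits, a value inside the interval. With a narrower window, 500 bp upstream to 100 bp downstream, the count was 14 of 29 (48.3%), against 48.3% of all thresholded summits. In the window of 1000 bp upstream to 200 bp downstream, 14 of the 16 summits upstream of lincRNAs were included. Inside lincRNA genes 4 of 11 were. Of the 16 upstream summits, 11 lay between the lincRNA and a protein-coding gene that point away from each other, and 8 were nearer to the lincRNA 5′ end. No shares over other gene classes are given for these counts by place, so they are not shown to be particular to lincRNA genes. The 20 summits in a window had a median signal of 46.4, and the 9 outside had 33.0. Over the whole thresholded list the medians were 40.8 and 36.7.

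**Figure D3:**
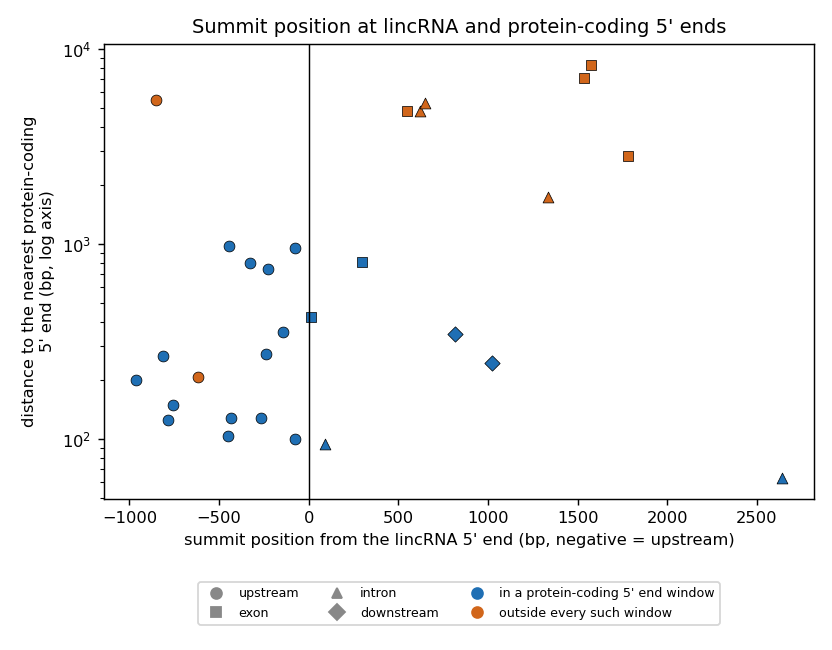
Position of each of the 29 summits relative to the lincRNA 5′ end (x axis, bp, negative is upstream) and its distance to the nearest protein-coding 5′ end (y axis, bp, log axis). Shapes give the place in the lincRNA gene and colours whether the summit is in a protein-coding window. Of the 16 upstream summits 14 are blue, and 7 of the 11 inside lincRNA genes are orange.

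The 9 summits outside every protein-coding window are those that a neighbouring coding promoter, as defined here, does not share. The strongest was at linc-128 (WBGene00219734, chromosome V, 1150906 to 1153207, plus strand), a lincRNA with 1 exon. Its summit at 1151457 was in that exon, 551 bp from the 5′ end, and 4814 bp from the nearest protein-coding 5′ end, that of the calmodulin gene cmd-1. The signal was 71.3 at rank 251. Replicate 1 gave 38.9 at rank 209 and replicate 2 gave 46.8 at rank 119. It was the only summit of the 9 that reached the strongest 25% of the list, and both replicates ranked it high.

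The other internal summits outside a window were weaker. In linc-129 (WBGene00219601, chromosome III) the summit at 10818598 was in the intron, 1335 bp from the 5′ end and 1748 bp upstream of sca-1, the gene of the calcium pump of the sarcoplasmic reticulum. Its signal was 36.1, with ranks of 2110 and 628. In K07C10.8 (WBGene00306062, chromosome II) the intronic summit at 11167298 had a signal of 33.0 and ranks of 1935 and 2112. The snoRNA gene K07C10.2 and the ncRNA genes K07C10.3 and K07C10.6 are within 200 bp of it, so the nearest annotated transcripts there are short ones, and the nearest protein-coding 5′ end, of the patched-related gene ptr-13, is 4817 bp away. In linc-159 (WBGene00219762, chromosome IV) the intronic summit at 1035336 had a signal of 32.7, 5297 bp from abhd-14. Replicate 2 ranked that peak 763 and replicate 1 ranked it 4742.

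In linc-142 (WBGene00219561, chromosome X) the exonic summit at 12517460 had a signal of 31.7 and ranks of 2898 and 2148. It lies inside the protein-coding gene scd-1, 8329 bp from its 5′ end. In linc-152 (WBGene00219753, chromosome II) the exonic summit at 15258906 had the lowest signal of all 29, 28.1, and was 7114 bp from tig-3. Replicate 2 ranked it 2431, and replicate 1 had no summit within 150 bp. With linc-128 and the internal peak of linc-91 these make up the 7 summits inside lincRNA genes that are outside a window.

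Only 2 upstream summits were outside a window. At linc-22 (WBGene00219699, chromosome X, 9069138 to 9073735, plus strand), a lincRNA with 5 exons, the summit at 9068287 was 851 bp upstream, and the nearest protein-coding 5′ end, of F47E1.4, was 5464 bp away. Its signal was 38.3, and the replicates differed, with rank 1307 in replicate 1 and 4790 in replicate 2. At linc-44 (WBGene00219675, chromosome II, 5781921 to 5782113, minus strand) the upstream summit at 5782728 had a signal of 30.2. It lies in the protein-coding gene K05F1.6, 208 bp past its 5′ end, and so falls just beyond the window's limit of 200 bp. Its ranks were 14878 and 3161. The other linc-44 summit, at 5782099 and 14 bp inside the lincRNA, had a signal of 37.6 and ranks of 5678 and 537, and it is within 200 bp of a tRNA gene and of the ncRNA gene F10C1.16.

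The other 10 marked genes had 1 summit each, all in a protein-coding window, with signals from 28.5 to 47.0. Those upstream of a lincRNA were at linc-108 (228 bp, next to the acyl-CoA synthetase gene acs-2), linc-69 (963 bp, next to B0507.3) and linc-2 (238 bp, next to pcf-11, whose product acts in cleavage of the 3′ ends of pre-messenger RNA). The same held for linc-84 (268 bp, next to F55H12.7), linc-33 (74 bp, next to trpp-9, a subunit gene of a vesicle tethering complex), linc-82 (451 bp, next to C46F11.4) and linc-8 (810 bp, next to gbas-1). linc-72 had its summit in the exon, 811 bp upstream of F46C5.10, and linc-90 in the intron, 63 bp upstream of gei-4. K09A9.12 had its summit 135 bp beyond its 3′ end and 244 bp upstream of ent-2, a nucleoside transporter gene. Replicate 1 had no summit within 150 bp of the linc-2 summit, which replicate 2 ranked 325.

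The genes nearest to the limits of the rule were as follows. Those just inside 200 bp were linc-78 at 145 bp and K09A9.12 at 135 bp, and those just outside were linc-108 at 228 bp and linc-2 at 238 bp, which the upstream rule took in. Just inside 1000 bp upstream were linc-22 at 851 bp and linc-69 at 963 bp, and just outside were linc-103 at 1029 bp and linc-48 at 1180 bp.

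The share of marked genes differed with the distance of the lincRNA to a protein-coding 5′ end. Of the 57 lincRNA genes whose 5′ end lay within 1000 bp of one, 15 were marked by either rule (26.3%, exact 95% interval 15.5 to 39.7%). Of the 137 others, 12 were (8.76%, 4.61 to 14.8%). The intervals do not overlap. The upstream rule gave 11 of 57 against 5 of 137, and the rule for the gene and 200 bp gave 7 of 57 against 8 of 137. The protein-coding neighbours enter this split by definition, since a window of 1000 bp upstream of such a lincRNA often is their upstream window too. In the ncRNA class the shares were 14.0% and 5.87%, in snoRNA genes 48.9% and 20.9%, and in tRNA genes 25.9% and 21.8%. In miRNA genes the order was the other way, 6 of 75 and 11.3%.

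**Figure D4:**
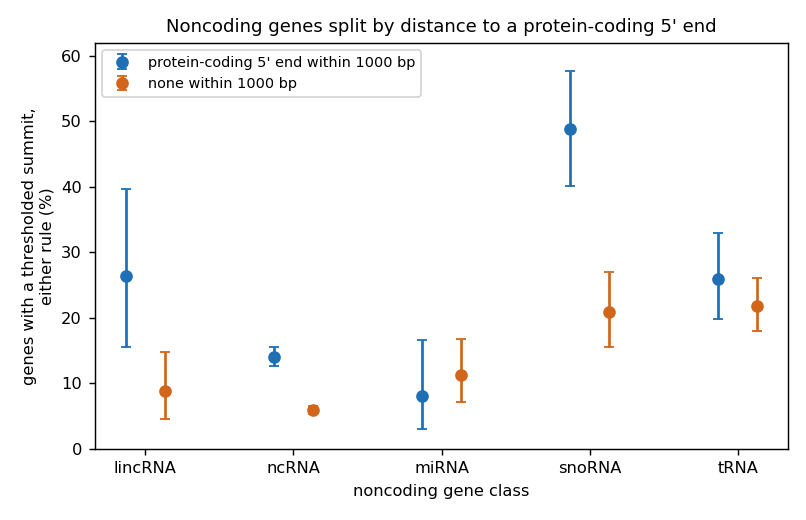
Share of genes with a thresholded summit by either rule in 5 noncoding classes, for genes whose 5′ end is within 1000 bp of a protein-coding 5′ end (blue) and for the others (orange). The y axis is percent of genes and bars are exact 95% binomial intervals that cover counting only. For lincRNA genes the points are 26.3% and 8.76%.

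Summits were also counted per length of sequence. Within 1000 bp upstream of lincRNA genes there were 262 summits per Mb (exact Poisson 95% interval 143 to 440, from 14 summits) where the sequence was also in a protein-coding window, and 14.3 per Mb (1.73 to 51.5, from 2 summits) elsewhere. In lincRNA genes with 200 bp on each side there were 26.9 per Mb outside the windows (10.8 to 55.5, from 7 summits). Sequence outside protein-coding genes and their windows held 24.0 per Mb over the whole genome, and all sequence outside the windows held 14.6. Each value is inside both of these intervals. Intergenic sequence in protein-coding windows held 111.3 per Mb, and all sequence in such windows held 72.9. Both values are below the interval for the upstream sequence that lincRNA genes share with such windows. The lincRNA sequence was not limited to that outside protein-coding genes. The lincRNA genes and 200 bp on each side held 175.75 per Mb inside the windows (80.4 to 333.6, from 9 summits). That interval contains 111.3 and lies above 72.9. No density is given for windows shared with other noncoding classes. The values in shared windows are therefore not shown to be particular to lincRNA genes.

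For other properties of the lincRNA genes the intervals overlapped. By length, 9 of the 65 shortest, 6 of the 64 in the middle and 12 of the 65 longest were marked. Genes with 1 exon were marked in 12 of 56 cases (21.4%, 11.6 to 34.4%) and those with more exons in 15 of 138 (10.9%, 6.21 to 17.3%). Genes that overlap a protein-coding gene were marked in 10 of 42 cases (23.8%, 12.1 to 39.5%) and the others in 17 of 152 (11.2%, 6.65 to 17.3%). The marked genes were spread over all 6 chromosomes, 2 of 23 on chromosome I, 7 of 43 on II, 5 of 29 on III, 2 of 26 on IV, 5 of 35 on V and 6 of 38 on X. For these properties no shares over other genes are given, so the counts are not shown to be particular to lincRNA genes.

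The replicates ranked most lincRNA peaks highly, though not always the same ones. A summit of replicate 1 was found within 150 bp of 27 of the 29 lincRNA summits, and one of replicate 2 within 150 bp of all 29. Taking from each replicate as many of its strongest peaks as the thresholded list holds, 20 of the 29 (69.0%) were among the strongest of replicate 1 and 24 (82.8%) among those of replicate 2. Over the whole thresholded list these shares were 73.1% and 73.8%. Both replicates had 16 of the 29 among their strongest, exactly 1 replicate had 12, and neither had the upstream summit of linc-44. Both had 55.2% of the lincRNA summits and 52.5% of the whole list, and neither had 3.45% and 5.59%. The thresholded list was made from these replicates, so their presence in it is not independent evidence. The median rank was 1459 in replicate 1 and 754 in replicate 2. Across the 27 summits matched in both, which share their libraries and a selection for high pooled signal, Spearman's rho of the ranks was 0.52. The median ranks and rho are not given over the whole list, so neither is shown to be particular to lincRNA summits.

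**Figure D5:**
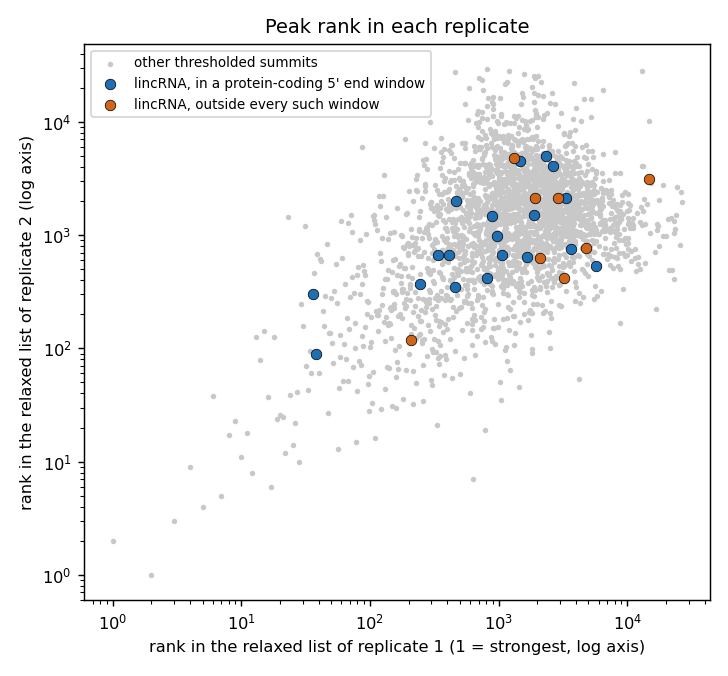
Rank of each thresholded summit in the relaxed list of replicate 1 (x axis) and replicate 2 (y axis), both log axes with 1 the strongest peak. Large points are the 27 lincRNA summits matched in both replicates, coloured by protein-coding window, and small grey points are the other matched summits. linc-78 is at 38 and 89, and the upstream summit of linc-44 at 14878 and 3161 has the lowest rank of them in replicate 1.

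In the relaxed lists, which by the authors' description hold peaks and background, a summit near a lincRNA gene was common. The pooled list had one in the gene or within 200 bp for 84 lincRNA genes (43.3%, 36.2 to 50.6%), against 30.1% of all nuclear genes. Replicate 1 had 82 (42.3%) against 29.4%, and replicate 2 had 92 (47.4%) against 31.7%. Without piRNA genes the shares over nuclear genes were 41.8%, 40.7% and 44.0%, each inside the lincRNA interval. Protein-coding genes had 48.2%, 47.9% and 51.8% in the same lists, each above the lincRNA share and inside its interval. Of the lincRNA genes, 59 (30.4%) had such a summit in both replicates, 23 (11.9%) in replicate 1 alone, 33 (17.0%) in replicate 2 alone and 79 (40.7%) in neither. Over nuclear genes without piRNA genes these shares were 29.6%, 11.1%, 14.4% and 44.8%, and over all nuclear genes 20.3%, 9.08%, 11.4% and 59.3%. By either rule, 49 lincRNA genes (25.3%) had no summit in any of the 4 lists, as did 26.9% of protein-coding genes, 32.1% of nuclear genes without piRNA genes and 43.6% of all nuclear genes.

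Several lincRNA genes missed the threshold narrowly, with 27.5 the lowest signal in the thresholded list. linc-138 had a pooled signal of 27.5 at rank 2733, 200 bp upstream of its 5′ end and 1432 bp upstream of klf-3, a Krüppel-like factor gene. linc-50 had 27.3 at rank 2762, 108 bp upstream and 2314 bp from the forkhead gene fkh-7. linc-38 had 26.1 at rank 2983, 535 bp upstream of the lincRNA but 16 bp upstream of the lysozyme gene lys-1. linc-1 had 24.9, beyond its 3′ end and 877 bp downstream of the 5′ end of the ribosomal protein gene rpl-31, and linc-150 had 24.8, 1231 bp into the gene. For linc-138 the replicates were far apart, at rank 10722 in replicate 1 and 1606 in replicate 2. Of these 5 genes, only linc-38 had its summit in a protein-coding window.

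A few lincRNA genes were looked up by name. linc-73 had no thresholded summit, and the nearest was 25418 bp away. Its only pooled summit had a signal of 14.5 at rank 6875, 991 bp upstream, 1986 bp from the kinesin gene unc-104, with a match in replicate 2 and none in replicate 1. lep-5, a lincRNA that times the shaping of the male tail tip and that was chosen after its values were seen, had a pooled signal of 8.80 at rank 13271, 395 bp upstream, with a match in replicate 1 and none in replicate 2. The long noncoding gene tts-1 is annotated ncRNA and so is not a member.

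The motif shares under lincRNA summits were set beside those of the whole list. Within 50 bp of the summit, GAGAGA was found at 8 of 29 lincRNA summits (27.6%, 12.7 to 47.2%) and at 27.3% of all thresholded summits. GACGCA was found at 7 (24.1%, 10.3 to 43.5%) and at 16.5%, CCAAT at 5 (17.2%) and at 15.7%, and TGACG at 5 (17.2%) and at 19.6%. TGANTCA was found at 1 lincRNA summit and at 7.24% of all, the E-box at 1 and at 3.86%, and the TATAAA box at 1 and at 4.56%. The nuclear receptor motif AGGTCA was found at 0 of 29, which allows a share of up to 10.3% (3 summits of 29), and at 3.71% of all summits. AAAGGTCA was found at 0 and at 0.735%, and GGGCGG at 0 and at 5.48%. The intervals on 29 summits are wide, and a match to a short motif is not a measured binding site. The GC content of the 101 bases was 47.1% ± 7.83 (SD, n = 29 summits) at lincRNA summits and 45.3% ± 7.88 (SD) over the whole list. It was 45.5% ± 8.21 for the 20 in a protein-coding window and 50.7% ± 5.81 for the 9 outside.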

How the data were processed

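ChIP-seq peak lists of eGFP-tagged NHR-6 in L4 worms (1 group, 2 biological replicates) were used in build ce11, which is WBcel235. Per the deposited listings, the authors made relaxed lists of peaks and background for each replicate and for the pooled replicates, and derived a thresholded list by irreproducible discovery rate. Neither aligner nor peak caller is named in the sources used here. Each deposited peak carries a signal value from the authors on a scale that is not stated, which was used only to describe and rank peaks within a list. The thresholded list equals the 2720 pooled peaks of highest signal. Read depth is unknown, so no error could be given for a single peak.

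Summit positions, counted from 1, were set against the genes of Ensembl release 115 in Python 3.11.15 (pandas 2.3.3, numpy 2.4.6, scipy 1.17.1) and plotted with matplotlib 3.10.9. Protein-coding windows took in 1000 bp before and 200 bp after an annotated 5′ end, and replicate summits were matched within 150 bp. Peaks on the mitochondrial genome were left out. No test was run, since there is 1 group. Every marked lincRNA gene was named, with full values for the 10 of highest signal and for those outside the windows, as were the 5 unmarked genes of highest pooled signal, linc-73 and tts-1. The members, motifs and lists were chosen with earlier results of these data known. The alternatives changed the distances, the counting rule, the strength of the peaks and the motif window, or used 1 replicate. Lists in build ce10 were not used.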

Additional observations from a re-analysis of the deposited data

How the results depend on the processing

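The counts changed with the distances and with the strength of the peaks. No share over all genes is given beside the changed thresholded gene counts. These changes are therefore not shown to be particular to lincRNA genes. With a margin of 500 bp in place of 200 bp, 23 lincRNA genes had a thresholded summit in or near the gene in place of 15, and with 500 bp in place of 1000 bp upstream, 10 had one in place of 16. With only the stronger 50% of the thresholded peaks, the counts were 6 near the gene, 9 upstream and 13 by either rule in place of 27, and 12 of 14 summits at lincRNA genes (85.7%) lay in a protein-coding window in place of 20 of 29 (69.0%), so the count fell with the number of summits while the share rose. Over all thresholded summits the share was 64.0% in the stronger 50% and 57.6% in the whole list. The other changes of distance or of the counting rule, 22 values with the replicates included, left each count within 1.5 times, among them 14 summits of 29 in the narrower protein-coding window. With each replicate alone in place of the thresholded list, the number of lincRNA genes was 14 to 16 near the gene, 13 to 15 upstream and 25 to 26 by either rule, the number of summits in a protein-coding window was 18 both times, and the relaxed list gave 82 to 92 genes. The genes were not all the same ones. Of the 26 lincRNA genes marked without replicate 1, 23 were among the 27, and linc-22, linc-33, linc-8 and linc-82 were lost. Of the 25 marked without replicate 2, 21 were, and linc-142, linc-152, linc-159, linc-2, linc-44 and linc-84 were lost. With 100 bp to each side in place of 50 bp, GAGAGA was found at 48.3% of lincRNA summits and CCAAT at 41.4%, against 42.0% and 29.4% of all thresholded summits. No paired analysis was possible because there is 1 group. Replicates limit each peak to 2 values, and read depth is unknown.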
